A study of Mus with 7 samples.

Results

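The 8 transcription factor genes described here carry the interferon response, and were followed through all 7 libraries of a single cell RNA sequencing experiment on self-renewing fetal liver-derived macrophages (FLMs). They are Irf1, Irf2, Irf3, Irf5, Irf7, Irf8, Irf9 and Stat2. They were chosen by gene name, with earlier results of these data known, and are 8 of 31053 genes in the files. FLMs are macrophages grown from the liver of C57BL/6J mouse fetuses and kept dividing with GM-CSF at 30 ng/mL, so every group was in that growth factor. As a model they are described as similar to inflammatory macrophages that arise from monocytes, and may differ from the macrophages of a given tissue. The study asked how docosahexaenoic acid (DHA), an omega-3 fatty acid, alters the response to lipopolysaccharide (LPS), the bacterial ligand of TLR4.

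Con cells were collected in 10% FBS before any treatment. The other 6 groups spent 24 h in 0.25% FBS, either with 8.3 µM bovine serum albumin as vehicle (Veh) or with 25 µM DHA and 8.3 µM albumin (DHA), and then received 20 ng/mL LPS for 0, 1 or 4 h. They are named Veh.LPS.0, DHA.LPS.0, Veh.LPS.1, DHA.LPS.1, Veh.LPS.4 and DHA.LPS.4. Each group is 1 library, so no difference could be tested over replicates. Every interval given here is a 95% interval that covers counting error only. The intervals are exact, except those of differences between log2 ratios, which are normal intervals on the log scale.

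Interferon regulatory factors (IRFs) bind a shared DNA element in the promoters of type I interferon (IFN1) genes and of genes that interferon induces. IRF3 and IRF5 lie latent in the macrophage and are activated by phosphorylation downstream of TLR4, and IRF3 drives the first wave of Ifnb1, the gene of IFN-β. IFN-β then signals through its receptor to a complex of STAT proteins with IRF9, named ISGF3, of which STAT2 and IRF9 are subunits, and ISGF3 induces Irf7, whose product amplifies interferon production. IRF1 is made quickly after inflammatory signals, IRF2 competes with IRF1 for its sites, and IRF8 is a lineage factor of macrophages and dendritic cells.

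Cells with more than 20000 UMIs (counted mRNA molecules), at least 2000 genes and under 20% mitochondrial UMIs were kept, which left 692 to 3073 cells and 22045775 to 125716982 UMIs per library. The DHA libraries kept the fewest cells: 74.4% to 80.0% of their barcodes had 20% or more mitochondrial UMIs, against 29.0% to 54.7% in Con and the Veh libraries. Summed macrophage markers were at 5817 to 7089 counts per 1000000 UMIs (CPM), while summed markers of 8 other cell types reached at most 7.66 CPM and the 3 mast cell markers had no UMI. As no other cell type was marked, the share of UMIs from free RNA could not be measured. Of 11640 kept cells, 32 had a barcode that was also kept in another library.

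All 8 genes were above the minimum used for counts over all genes, a mean of 2 CPM over the 7 libraries, which 9807 genes passed. UMIs from the 3′ ends of mRNAs do not scale with gene length, so levels were set side by side. Whether capture was equal between genes was not tested, and the intervals do not cover it. Irf8 was the most abundant of the 8 in all 6 libraries in low serum, whereas Irf2 led in Con. In Con the order was Irf2, Irf5, Irf8, Irf3, Irf9, Irf1, Stat2 and Irf7, and only the neighbours Irf5 and Irf8, and Irf1 and Stat2, had overlapping intervals. By Veh.LPS.4 the order was Irf8, Irf9, Irf5, Irf2, Irf7, Stat2, Irf3 and Irf1, with only Irf3 and Irf1 overlapping. In DHA.LPS.4 it was Irf8, Irf5, Irf2, Irf9, Irf3, Irf7, Stat2 and Irf1, and Irf2 overlapped with Irf9, Irf3 with Irf7, and Stat2 with Irf1. Between the highest and the lowest library Irf7 ranged 24.9-fold, Irf1 5.91-fold, Irf9 5.27-fold and Stat2 4.41-fold, while Irf2, Irf8, Irf5 and Irf3 ranged from 1.86-fold to 2.66-fold. The 8 genes summed to 227 CPM in Con, 273 CPM in vehicle without LPS and 345 CPM in vehicle at 4 h, against 254 CPM with DHA at 4 h.

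**Figure D1:**
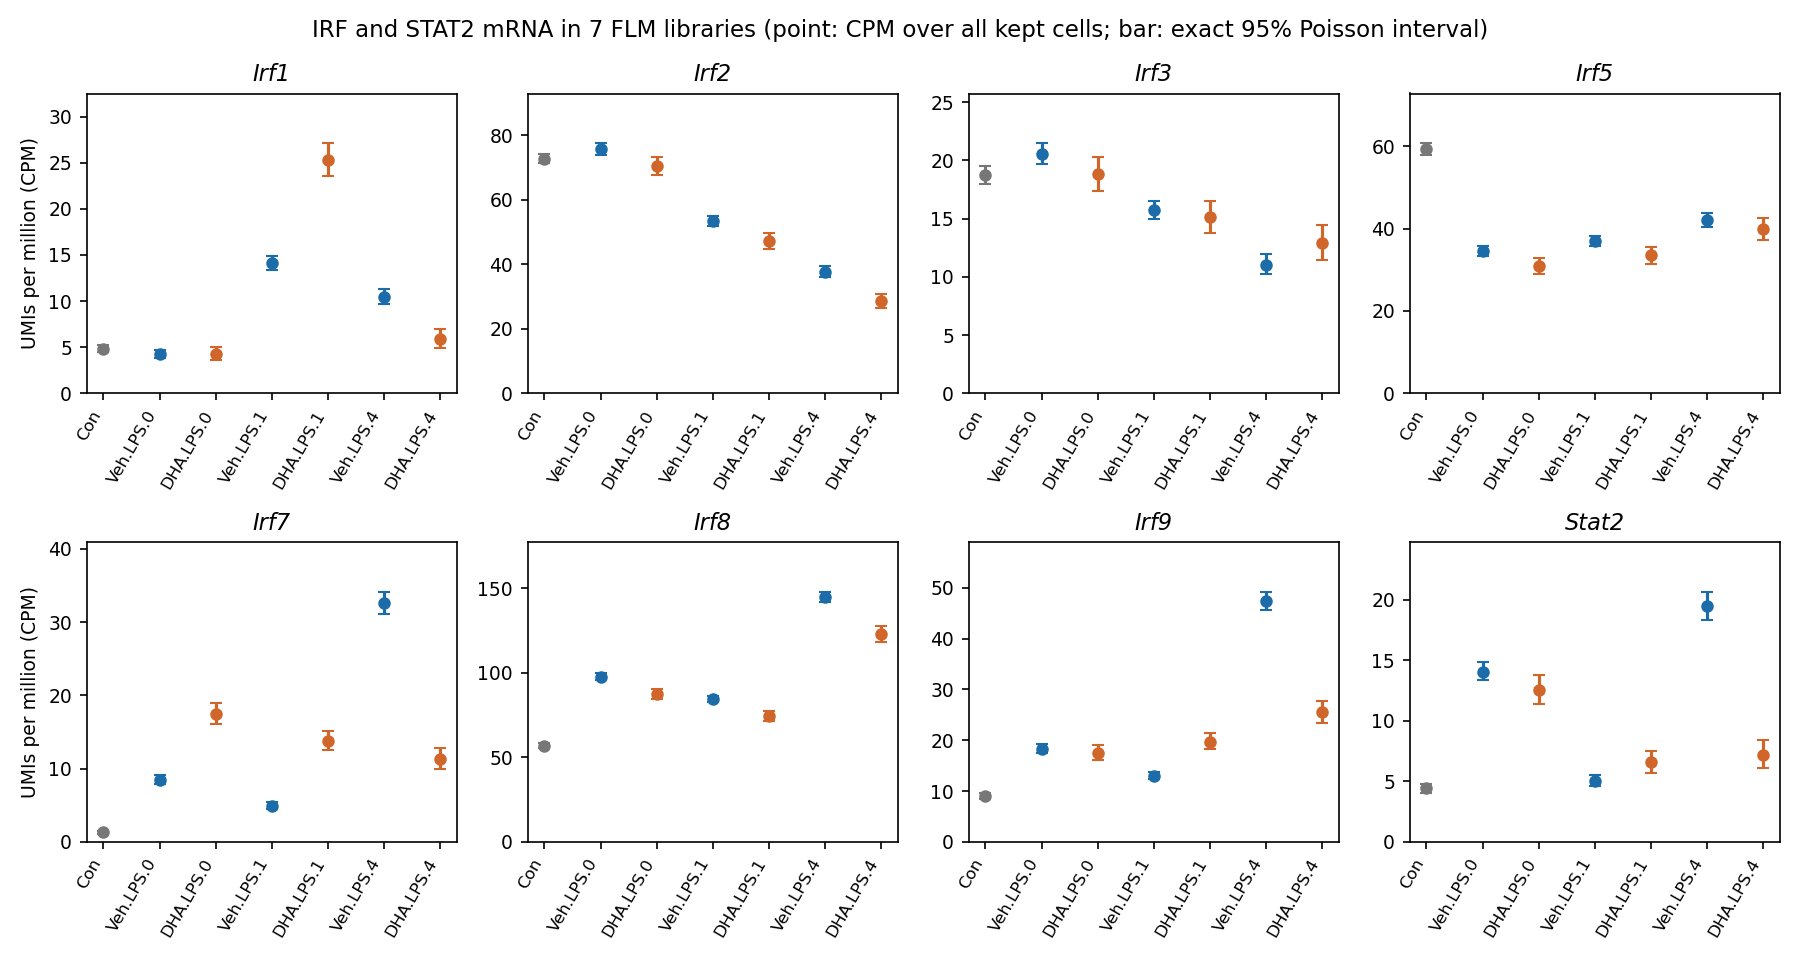
Level of each gene (y axis, CPM, from 0, with a scale of its own per gene) in the 7 libraries (x axis; grey Con, blue Veh, orange DHA). Points are the CPM over all kept cells of 1 library and bars the exact 95% Poisson interval. Irf7, Irf9, Stat2 and Irf8 were highest in Veh.LPS.4, Irf1 in DHA.LPS.1, Irf2 and Irf3 in Veh.LPS.0 and Irf5 in Con.

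Of the latent factors, Irf3 (ENSMUSG00000003184, chr7:44997648-45002848 in GRCm38) was at 18.7 CPM in Con, in Veh at 20.5, 15.7 and 11.1 CPM after 0, 1 and 4 h of LPS, and in DHA at 18.8, 15.1 and 12.9 CPM. With library totals its level was lower at each later LPS time, in DHA with overlapping intervals at 1 h and 4 h. The DHA and Veh intervals overlapped at all 3 times, though the interval of the DHA/Veh ratio at 4 h, 1.16 (1.01 to 1.34), lay above 1. Irf5 (ENSMUSG00000029771, chr6:29526130-29541869), which shares part of its locus with Tnpo3, was at 59.3 CPM in Con, in Veh at 34.5, 37.0 and 42.0 CPM after 0, 1 and 4 h of LPS, and in DHA at 30.9, 33.5 and 39.9 CPM. Con stood above the 6 libraries in low serum, which ranged from 30.9 to 42.0 CPM.

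Irf8 (ENSMUSG00000041515, chr8:120736358-120756694) was at 56.9 CPM in Con, in Veh at 97.6, 84.4 and 145 CPM after 0, 1 and 4 h of LPS, and in DHA at 87.5, 74.2 and 122.9 CPM. It was lowest in Con and highest at 4 h, and at each time the DHA library lay somewhat below its Veh library with no overlap of the intervals. Within each of the 7 libraries, cells with 10 to 20% mitochondrial UMIs held less Irf8 than cells under 10%, with ratios from 0.685 to 0.899; this split was chosen after seeing the data. Irf2 (ENSMUSG00000031627, chr8:46739745-46847458), the repressor, was at 72.8 CPM in Con, in Veh at 75.7, 53.4 and 37.7 CPM after 0, 1 and 4 h of LPS, and in DHA at 70.5, 47.2 and 28.5 CPM. Like Irf3 it was lower in CPM the longer LPS was present, in both Veh and DHA. From 1 h to 4 h in vehicle the log2 ratio was -0.50 for Irf2 and -0.51 for Irf3, where the median of all genes was -0.31. With TMM factors, which scale the libraries to most of their genes, these were -0.16, -0.17 and 0.03. The size of this later step thus depends on the scaling. The locus of Irf2 overlaps that of Gm31172.

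Irf1 (ENSMUSG00000018899, chr11:53770014-53778374) was at 4.84 CPM in Con, in Veh at 4.27, 14.2 and 10.5 CPM after 0, 1 and 4 h of LPS, and in DHA at 4.31, 25.3 and 5.85 CPM. The 3 libraries without LPS had overlapping intervals, both 1 h libraries stood above them, and at 4 h Veh was still above them while DHA.LPS.4 overlapped with Con and DHA.LPS.0. Irf7 (ENSMUSG00000025498, chr7:141263183-141266499), the amplifier, was at 1.31 CPM in Con, in Veh at 8.47, 4.92 and 32.6 CPM after 0, 1 and 4 h of LPS, and in DHA at 17.5, 13.8 and 11.3 CPM. The order of DHA and Veh turned over between 1 h and 4 h: the DHA library was the higher one at 0 h and 1 h and the lower one at 4 h, with no overlap of intervals at any of the 3 times.

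Of the ISGF3 subunits, Irf9 (ENSMUSG00000002325, chr14:55603985-55610030) was at 8.99 CPM in Con, in Veh at 18.3, 13.1 and 47.4 CPM after 0, 1 and 4 h of LPS, and in DHA at 17.6, 19.7 and 25.5 CPM. DHA and Veh overlapped at 0 h, DHA lay above at 1 h and below at 4 h. Stat2 (ENSMUSG00000040033, chr10:128270498-128292853), whose locus overlaps that of Apof, was at 4.41 CPM in Con, in Veh at 14.1, 5.05 and 19.5 CPM after 0, 1 and 4 h of LPS, and in DHA at 12.6, 6.57 and 7.17 CPM. At 1 h Veh was down to an interval that overlapped with Con, and DHA was close above it, while at 4 h DHA overlapped with its 1 h level and Veh was the highest of the 7.

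The first comparison asks what low serum with the albumin vehicle did by itself. In Veh.LPS.0 against Con, Irf7 was 6.46-fold higher (5.46 to 7.68), Stat2 3.19-fold (2.88 to 3.52), Irf9 2.04-fold (1.89 to 2.19) and Irf8 1.72-fold (1.67 to 1.77), and Irf5 was lower at a ratio of 0.582 (0.558 to 0.606). Thus 4 of 8 genes were higher by more than 1.5-fold, where 12.4% of all 9807 genes were, and 1 was lower, where 7.22% were. Irf1, Irf2 and Irf3 stayed within 1.5-fold, with ratios of 0.882, 1.04 and 1.10. The step changed serum, albumin and time in culture together, and these cannot be told apart. All 5 ratios kept their side of 1.5-fold under all 10 other ways of choosing, weighting or scaling the cells. Over cells with no UMI of the cycle genes Mki67 or Top2a, of which Con had 54, the log2 ratio of Irf7 was 1.04 in place of 2.69, and Irf1 was lower past the limit, at -1.77 in place of -0.18.

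After 1 h of LPS the genes went in different directions. In Veh.LPS.1 against Veh.LPS.0, Irf1 was 3.31-fold higher (2.97 to 3.70), while Stat2 was lower at 0.359 (0.323 to 0.398) and Irf7 at 0.580 (0.517 to 0.651). So 1 of 8 genes was higher by more than 1.5-fold against 4.85% of all genes, and 2 were lower against 6.65%. Irf9, Irf2 and Irf3 were lower by less than this limit, with ratios of 0.713, 0.705 and 0.766, and the median log2 ratio of the 8 genes was -0.44 where that of all genes was -0.11. In DHA-treated cells, DHA.LPS.1 against DHA.LPS.0, Irf1 was 5.86-fold higher (4.92 to 7.02) and Stat2 again lower, at 0.523 (0.441 to 0.618), which is 1 of 8 higher against 5.5% of all genes and 1 of 8 lower against 7%. Irf7 had a ratio of 0.788 (0.696 to 0.893) there.

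After 4 h of LPS in vehicle, the interferon-induced factors were higher. In Veh.LPS.4 against Veh.LPS.0, Irf7 was 3.85-fold higher (3.55 to 4.18), Irf9 2.59-fold (2.44 to 2.75) and Irf1 2.45-fold (2.16 to 2.78). Irf8, at 1.48-fold, and Stat2, at 1.38-fold, lay just inside the limit of 1.5-fold. Irf2 and Irf3 were lower, at ratios of 0.498 (0.475 to 0.523) and 0.538 (0.492 to 0.588). Hence 3 of 8 genes were higher against 9.89% of all genes and 2 were lower against 41.5%, so that ratios as low as those of Irf2 and Irf3 were common among all genes. The median log2 ratio of all genes was -0.42 with library totals and 0.01 with TMM factors, which scale the libraries to most of their genes, and the 8 genes had a median of 0.52, or 0.95 with TMM factors. With TMM factors 6 of 8 genes were higher by more than 1.5-fold, against 20.5% of all genes, and 0 lower, against 24.0%: Irf5, Irf8 and Stat2 joined the higher genes, and Irf2 and Irf3 came within the limit. Median-of-ratios factors gave the same 6 and 0.

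Set against 1 h in place of 0 h, the 4 h vehicle library was 6.63-fold higher in Irf7 (5.99 to 7.36), 3.86-fold in Stat2 (3.46 to 4.30), 3.63-fold in Irf9 (3.39 to 3.88) and 1.71-fold in Irf8 (1.66 to 1.77). In all, 4 of 8 genes were higher by more than 1.5-fold, against 7.81% of all genes, and none lower, against 34.1%. Irf1 was below its 1 h level, at a ratio of 0.739. Irf8 was within 1.5-fold when only cells with no UMI of Mki67 or Top2a were used. These comparisons share libraries with those above and are not independent of them.

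The same 4 h in DHA-treated cells was compared with the DHA library before LPS. In DHA.LPS.4 against DHA.LPS.0 no gene of the 8 was higher by more than 1.5-fold, where 10.2% of all genes were, and 3 were lower, where 35.3% were: Irf2 at 0.404 (0.370 to 0.441), Stat2 at 0.571 (0.473 to 0.686) and Irf7 at 0.645 (0.555 to 0.749). Irf9 and Irf8 were higher within the limit, at 1.45-fold (1.29 to 1.63) and 1.40-fold (1.33 to 1.48), and Irf1 was at 1.36-fold (1.06 to 1.73). This split changed with the processing. With TMM factors, 4 genes (Irf1, Irf5, Irf8 and Irf9) were higher, against 18.8% of all genes, and only Irf2 was lower, against 22.8%, while Irf7 and Stat2 came within the limit at log2 ratios of -0.33 and -0.51. Median-of-ratios factors called the same 5 genes. Irf7 also came within the limit with a minimum of 10000 UMIs, at -0.53, and with each cell weighted equally, at -0.58, and Stat2 did over cells without Mki67 or Top2a UMIs, at -0.49.

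DHA by itself, before any LPS, went with more Irf7, and it was the only gene of the 8 past 1.5-fold over the kept cells. In DHA.LPS.0 against Veh.LPS.0, Irf7 was 2.07-fold higher (1.86 to 2.29) and the other ratios lay between 0.893 and 1.01, so 1 of 8 genes was higher by more than 1.5-fold, against 1.73% of all genes, and none was lower, against 1.53%. Irf7 ranked at percentile 99.4 of all log2 ratios. The DHA libraries held many barcodes with a high mitochondrial share. Within DHA.LPS.0 the kept cells with 10 to 20% mitochondrial UMIs had less Irf7 than those under 10%, at 10.3 against 18.4 CPM. That ratio was 0.562 (0.396 to 0.778). In every other library it lay between 0.924 and 1.66, with intervals that include 1. Over cells under 10% alone the log2 DHA/Veh ratio of Irf7 was 1.11, and over all deposited barcodes 0.70, against 1.05 over the kept cells. Beyond these values, the part of the mitochondrial gap in the DHA ratios was not tested.

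At 1 h of LPS the excess in DHA-treated cells was wider. Relative to Veh.LPS.1, DHA.LPS.1 had 2.81-fold more Irf7 (2.46 to 3.20), 1.79-fold more Irf1 (1.63 to 1.95) and 1.51-fold more Irf9 (1.37 to 1.67), and Stat2 was at 1.30-fold (1.10 to 1.53). In all, 3 of 8 genes were higher by more than 1.5-fold, against 2.1% of all genes, and none lower, against 2.42%. The interval of Irf9 spans the limit. Over all deposited barcodes Irf1 and Irf9 fell within it, with log2 ratios of 0.57 and 0.48, while Irf7 stayed past it at 1.01, and Irf9 was also within it with a minimum of 10000 UMIs, at 0.57. Irf2, Irf3, Irf5 and Irf8 had ratios of 0.884, 0.961, 0.906 and 0.879.

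At 4 h the direction was the opposite. DHA.LPS.4 was lower than Veh.LPS.4 in Irf7 at 0.346 (0.302 to 0.395), Stat2 at 0.368 (0.310 to 0.435), Irf9 at 0.538 (0.491 to 0.589) and Irf1 at 0.559 (0.459 to 0.677). These are 4 of 8 genes lower by more than 1.5-fold, where 2.77% of all genes were, and none was higher, where 4.97% were. The other 4 lay between 0.755 for Irf2 and 1.16 for Irf3 (1.01 to 1.34), and the median log2 ratio of the 8 was -0.62 where that of all genes was 0.09. All 4 stayed past the limit under the 10 alternatives, over all deposited barcodes with log2 ratios of -1.93 for Irf7, -1.58 for Stat2, -1.19 for Irf1 and -1.04 for Irf9. The 3 comparisons of DHA with Veh use 6 separate libraries.

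**Figure D2:**
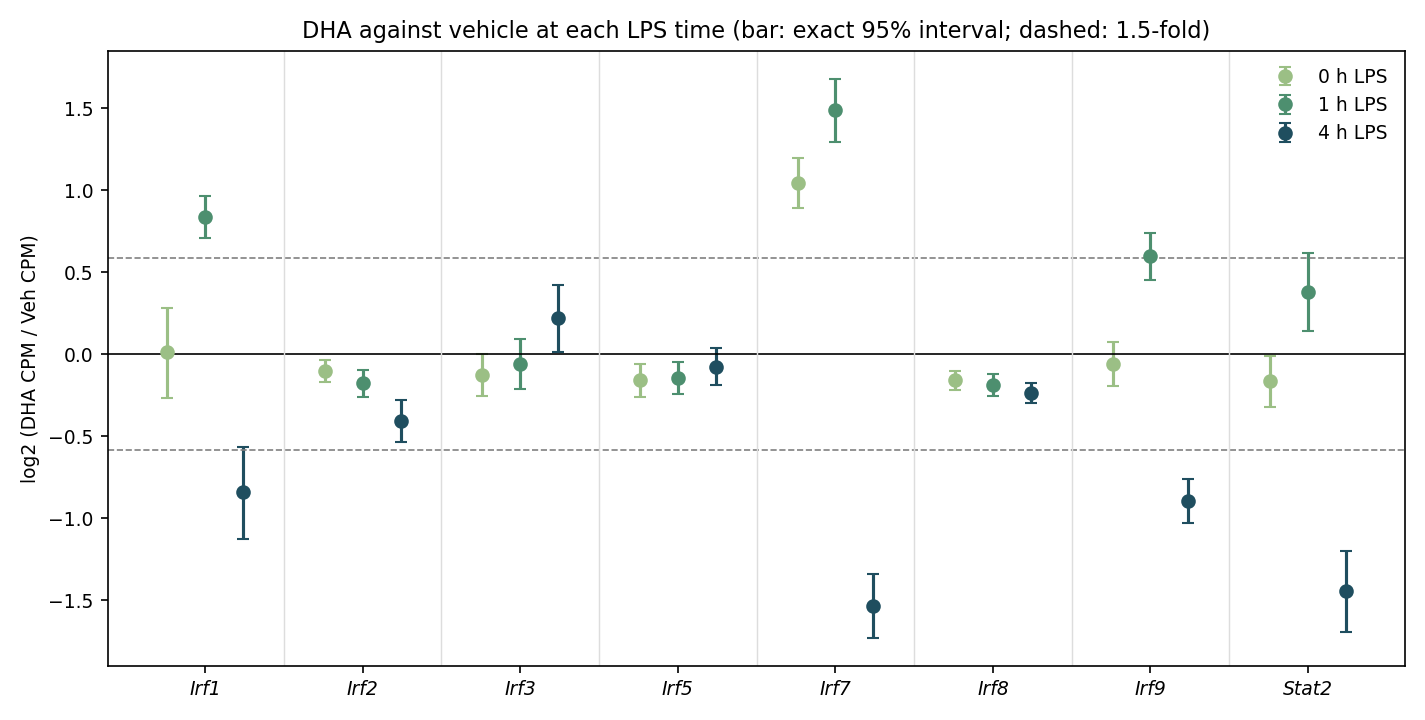
log2 ratio of DHA to Veh CPM (y axis) for each gene (x axis) at 0, 1 and 4 h of LPS (light, middle and dark points). Bars are exact 95% intervals for counting error and dashed lines mark 1.5-fold; Irf7 lay above the upper line at 0 h and 1 h and below the lower line at 4 h, while Irf2, Irf3, Irf5 and Irf8 stayed between the lines.

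The effect of DHA at 4 h, less that at 0 h, was -2.58 (-2.82 to -2.33) on the log2 scale for Irf7, -1.28 (-1.56 to -0.99) for Stat2, -0.85 (-1.23 to -0.47) for Irf1 and -0.83 (-1.02 to -0.65) for Irf9. It was -0.30 (-0.45 to -0.16) for Irf2 and 0.35 (0.11 to 0.59) for Irf3, whose DHA/Veh ratio went from 0.916 at 0 h to 1.16 at 4 h. Irf5 and Irf8 had differences of 0.08 (-0.06 to 0.23) and -0.08 (-0.16 to 0.01), whose intervals include 0. Irf7, Stat2, Irf1 and Irf9 thus had the 4 largest differences. With 1 library per group, the spread between cultures behind them is unknown. All these values use library totals. With TMM factors the median log2 DHA/Veh ratio of all genes at 4 h was -0.03 in place of 0.09. Small differences such as those of Irf3 and Irf8 therefore depend on the scaling, including whether their intervals include 0. The share of all genes with such a difference was not computed.

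At equal depth, the share of cells with Irf7 ordered the libraries as its CPM did. After every cell was thinned to 20000 UMIs, 2.20% of Con cells still had an Irf7 UMI. In Veh this share was 12.8%, 7.42% and 36.4% after 0, 1 and 4 h of LPS, and in DHA 19.9%, 17.1% and 13.4%. Without thinning it was 4.33% in Con. The Veh libraries then had 21.7%, 10.5% and 60.1% and the DHA libraries 36.2%, 27.7% and 19.2%. At 4 h, Irf9 was found in 58.3% of thinned Veh cells (exact binomial interval 55.2 to 61.4) and in 35.4% with DHA (31.8 to 39.1), and Stat2 in 27.5% (24.7 to 30.4) and 12.3% (9.93 to 15.0). An Irf1 UMI was found in 18.9% of Veh.LPS.1 cells (17.5 to 20.3) and 27.9% of DHA.LPS.1 cells (24.8 to 31.2). Irf8, in contrast, was found in 83.7% of DHA.LPS.4 and 87.8% of Veh.LPS.4 cells, and in no library in fewer than 65.7%.

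Irf7 and Irf1 reached the highest variance over mean of UMIs per cell among the 8 genes. The variance of thinned UMIs per cell, divided by their mean, is near 1 for molecules scattered at random, and was 2.36 for Irf7 in Veh.LPS.4, 2.19 in DHA.LPS.4, 2.68 in DHA.LPS.0 and 3.05 in DHA.LPS.1. Irf1 reached 2.04 in Veh.LPS.1 and 2.56 in DHA.LPS.1. Irf8 came next, at 1.24 to 1.85, with its highest value in Veh.LPS.4. The ISGF3 subunit genes lay lower, Irf9 at 1.08 to 1.40 and Stat2 at 0.989 to 1.46. Irf5 was at 1.01 to 1.30, Irf2 at 1.02 to 1.26 and Irf3 at 0.942 to 1.23. For molecules not scattered at random, this value also rises with the mean. In Veh.LPS.4 that mean was 2.85 UMIs for Irf8 and 0.398 for Stat2. The order of the genes by this value is therefore not an order of unevenness alone. In DHA.LPS.4, the 5% of cells with the most Irf7 held 63.1% of its UMIs, and in Veh.LPS.4 36.1%, where more cells had any. Such a share is also high where a gene is rare. For Stat2 in Con, with a variance over mean of 0.989, it was 58.1%. It therefore does not order the libraries by unevenness. A single DHA.LPS.1 cell had 15 Irf7 UMIs after thinning, the most of any cell. The value of 3.05 for that library includes this cell, and the value without it was not computed.

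**Figure D3:**
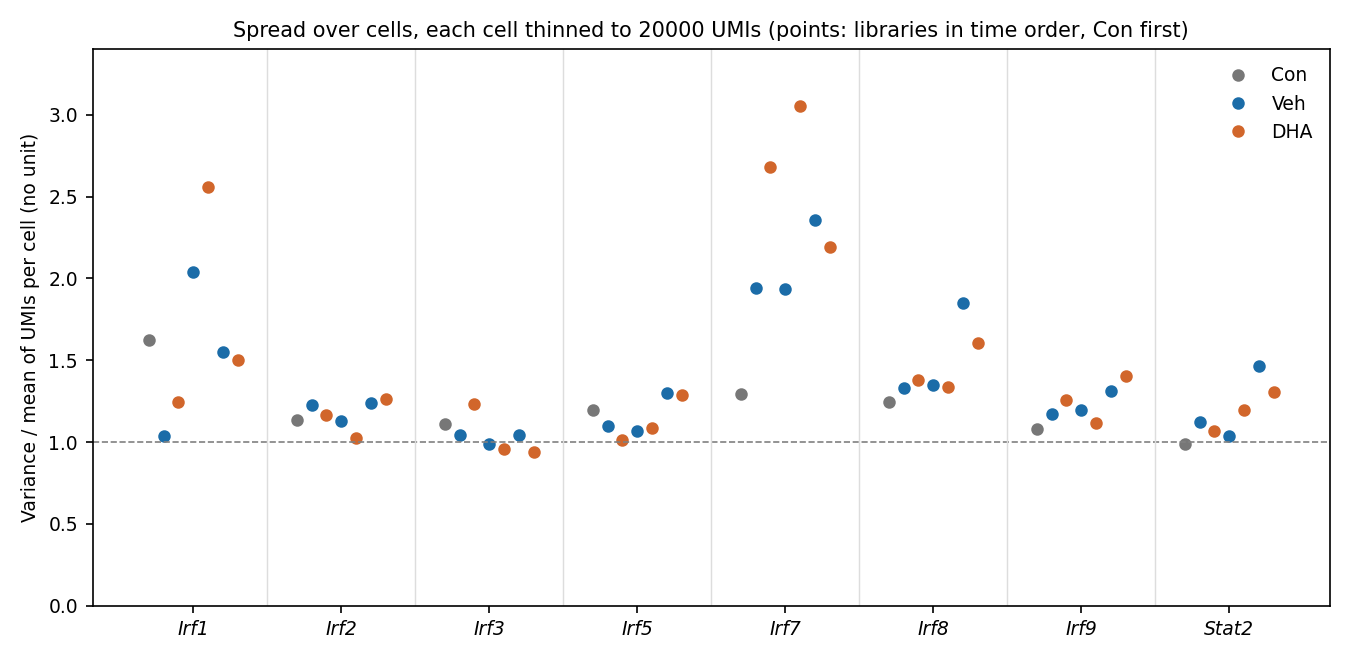
Variance of UMIs per cell divided by their mean (y axis, no unit, from 0), with each cell thinned to 20000 UMIs, for each gene (x axis) in the 7 libraries (points, Con first and then Veh and DHA at 0, 1 and 4 h; grey Con, blue Veh, orange DHA). The dashed line marks 1, the value for molecules scattered at random; Irf7 reached 3.05 and Irf1 2.56, both in DHA.LPS.1, while Irf3 stayed between 0.942 and 1.23.

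At 4 h of LPS, cells that held Irf7 held Stat2 and Irf9 more often than cells without it. In Veh.LPS.4, a Stat2 UMI was found in 39.9% of the 361 cells with Irf7 and in 20.4% of the 632 cells without it, and an Irf9 UMI in 67.3% against 53.2%. In DHA.LPS.4, Stat2 was found in 29.0% of the 93 cells with Irf7 and 9.68% of the 599 without, and Irf9 in 59.1% against 31.7%. In Veh.LPS.0, Stat2 was found in 26.2% of cells with Irf7 and 24.1% of those without, and Irf9 in 36.9% against 27.1%. In Veh.LPS.1 the shares were 12.3% against 8.89% for Stat2 and 31.6% against 20.4% for Irf9. For Irf9 they were 28.8% against 27.4% in DHA.LPS.0, 36.8% against 30.2% in DHA.LPS.1 and 14.1% against 15.2% in Con. For Stat2 they were 26.6% against 21.3% in DHA.LPS.0 and 16.9% against 11.8% in DHA.LPS.1. In Con they were 15.6% of 64 cells with Irf7 against 8.76% of those without. A higher share of Irf9 in cells with Irf7 was thus also seen in Veh.LPS.0 and Veh.LPS.1. For Stat2 the gaps outside 4 h were smaller than those at 4 h. No interval was computed for these shares, so whether the smaller gaps exceed counting error was not tested. Only Irf1, Irf7, Irf9 and Stat2, the genes past 1.5-fold with DHA at 4 h, were examined in this way.

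The genes of the pathway around these factors were counted next. With DHA at 0, 1 and 4 h, 1.73%, 2.1% and 4.97% of all genes were higher by more than 1.5-fold and 1.53%, 2.42% and 2.77% were lower, so a count of 0 in a list of 4 to 8 genes is near the background. Of 9 genes listed for the induction of interferon, 8 passed the minimum level. Among these were Tlr4 itself, the adaptor genes Ticam1 and Ticam2, the IRF3 kinase genes Tbk1 and Ikbke, and Mavs. With DHA at 0, 1 or 4 h, 0 of these 8 were past 1.5-fold. The nearest to the limit at 4 h was Ticam1, at 19.1 CPM with Veh against 13.4 CPM with DHA, a ratio of 0.702 (0.615 to 0.798). Of 7 receptor and kinase genes of interferon signaling, such as Ifnar1, Ifnar2, Jak1 and Tyk2, 0 were past the limit with DHA at any time, and Ifnar2 stood at 57.8 CPM with Veh against 70.4 CPM with DHA at 4 h. Among 4 other STAT genes that passed, Stat3, Stat5a, Stat5b and Stat6, none was past it with DHA either. With library totals, Stat5b was the only 1 of the 4 past 1.5-fold at 4 h of LPS in vehicle, lower at 2.41 CPM against 7.85 CPM before LPS, where 41.5% of all genes were lower. Irf4 was at most at 1.52 CPM.

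Ifnb1 was too rare for a ratio over most libraries. It had 197 UMIs in 21 of 993 Veh.LPS.4 cells and 11 UMIs in 5 of 692 DHA.LPS.4 cells, and 0 UMIs over 2481 Veh.LPS.0 cells, where a count of 0 leaves room for up to 0.121% of cells with a UMI. A single Veh.LPS.4 cell had 50 of the 197 UMIs. These counts are not corrected for depth, and the median kept cell had 56239 UMIs in Veh.LPS.4 but 29631 in DHA.LPS.4. Scaled to library totals, Ifnb1 with DHA at 4 h stood at 0.499 CPM, where Veh had 3.36 CPM. The ratio was 0.148 (0.0729 to 0.271), and its interval counts UMIs as independent. The share of cells with Ifnb1 was not computed at equal depth. In the 21 Veh.LPS.4 cells with Ifnb1, Irf7 was at 106 CPM against 30.9 CPM in the rest, Stat2 at 60.6 against 18.5 CPM, Irf1 at 38.2 against 9.79 CPM, Irf2 at 73.5 against 36.9 CPM and Irf9 at 74.3 against 46.7 CPM. Irf3, the factor that starts Ifnb1 transcription, was at 11.5 CPM in these cells and 11.05 CPM in the others. The value of 11.5 CPM rests on 16 UMIs in 8 of the 21 cells. No interval was computed for any gene in these 21 cells.

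Feedback genes differed among themselves. Usp18, an inhibitor of interferon receptor signaling, was at 0.366 CPM in Con, in Veh at 1.90, 1.35 and 31.5 CPM after 0, 1 and 4 h of LPS, and in DHA at 5.31, 5.47 and 8.48 CPM. Like Irf7 it was higher with DHA at 0 h and 1 h and lower at 4 h. Socs1 had a 4 h level of 6.21 CPM with Veh against 3.90 CPM with DHA, a ratio of 0.628 (0.491 to 0.796). Of the 9 feedback genes and IRF2 partner genes, these were the only 2 past 1.5-fold with DHA at 4 h, and Usp18 the only 1 at 0 h and at 1 h. The IRF2 partner genes Irf2bp1, Irf2bp2 and Irf2bpl were within the limit with DHA at all times, while Irf2bp2 was lower with LPS, going from 54.6 CPM in vehicle without LPS to 18.0 CPM at 1 h and 11.7 CPM at 4 h.

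Most targets of the factors were higher with DHA before LPS and at 1 h and lower at 4 h. Of 23 genes known to be induced by IFN1, 18 passed the minimum level, and 12 were higher by more than 1.5-fold with DHA at 0 h, 14 at 1 h and 0 at 4 h, whereas 16 were lower at 4 h and 0 at 0 h and 1 h. The share of all genes that was higher was 1.73%, 2.1% and 4.97% at these times, and 2.77% were lower at 4 h. At 0 h, 3 of the 18 had ratios below 1: Parp14 at 0.932, Ifi35 at 0.949 and Eif2ak2 at 0.953 (0.919 to 0.987). Their median log2 DHA/Veh ratio was 0.95, 1.09 and -1.14, against -0.05, -0.05 and 0.09 for all genes. Ifit1, an antiviral RNA-binding protein gene, stood in Veh at 0.435, 1.99 and 43.6 CPM after 0, 1 and 4 h of LPS and in DHA at 8.11, 11.5 and 8.26 CPM. In vehicle, 17 of the 18 were higher by more than 1.5-fold at 4 h than at 0 h, against 9.89% of all genes, and Bst2 was at 1.31-fold (1.25 to 1.37).

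Within libraries, the cells rich in target UMIs were rich in some of the factors. Cells above the upper quartile of summed UMIs of the 23 target genes, none of which is among the 8 factors, were set against the rest of their library. The quartile was 5 UMIs per 20000 in Con, where 433 of 2908 cells lay above it, and 23 in Veh.LPS.4. The sum also follows the most abundant targets. In Con, Eif2ak2 was at 93.3 CPM and Oasl1 at 5.65 CPM, and in Veh.LPS.4 they were at 210 and 151 CPM. Target-rich cells were thus not held to the same level, or to the same mix of targets, across libraries. In Veh.LPS.4, 241 such cells had 1.59 Irf7 UMIs per 20000 against 0.380 in the other 752, a ratio of 4.17 (3.57 to 4.88), and the ratio was 3.27 (2.67 to 4.00) for Stat2, 3.12 (2.36 to 4.13) for Irf1, 1.67 (1.43 to 1.93) for Irf2 and 1.31 (1.14 to 1.501) for Irf9. Irf7 had a ratio of 3.42 to 6.42 in every one of the 7 libraries, with intervals above 1. For Irf1 the interval lay above 2 in both 4 h libraries, where the other 5 libraries had ratios of 1.06 to 1.38. For Stat2 the interval included 1 in Con, at 1.24 (0.885 to 1.69), and in Veh.LPS.0, at 1.17 (0.985 to 1.38), and lay above 1 in the other libraries. Irf3, Irf5 and Irf8 had ratios between 0.797 and 1.19 in all 7 libraries. Among these, Irf8 had intervals below 1 in DHA.LPS.0 (0.690 to 0.919) and DHA.LPS.4 (0.738 to 0.940). Irf5 had an interval above 1 in Veh.LPS.0 (1.04 to 1.29). The intervals count UMIs as independent, and cells of 1 library share their culture.

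**Figure D4:**
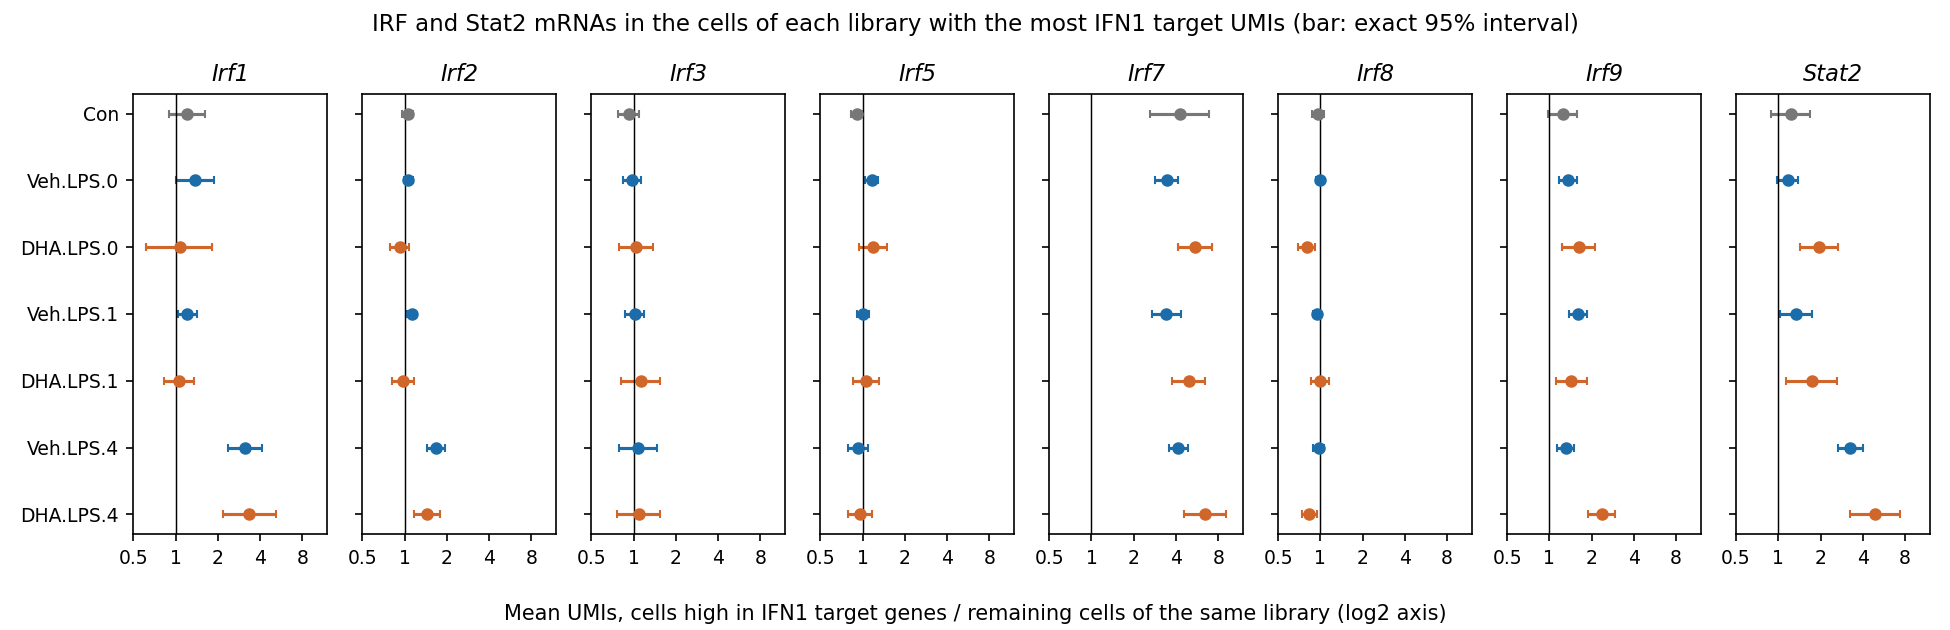
Mean thinned UMIs of each gene in cells above the upper quartile of IFN1 target UMIs, divided by the mean in the remaining cells of the same library (x axis, log2 scale), for the 7 libraries (y axis; grey Con, blue Veh, orange DHA). Bars are exact 95% intervals for counting error. Irf7 lay between 3.42 and 6.42 in all 7 libraries, and Irf3, Irf5 and Irf8 between 0.797 and 1.19.

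The genes with the profile most like each factor over the 7 libraries were found by the root mean square difference of their log2 CPM after centring, among 9796 genes, and this is a description of 7 points that share cultures and scaling. Nearest to Irf7 were Ifi209, Ifi202b and Ifi44, at differences of 0.36, 0.45 and 0.46. Irf9 had Ifi204, Glrp1 and Samd9l, at 0.13 to 0.20, and Stat2 had Rnf114, Ddx58 and Oas1a, at 0.35 to 0.38. Irf1 was nearest to Fosl2, Ier5 and Eid3, at 0.30 to 0.36. The flatter profiles had closer neighbours: Pde4d for Irf2 at 0.04, Dnajc30 for Irf3 at 0.04, Atp2a2 for Irf5 at 0.04 and Itgb2 for Irf8 at 0.11.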

How the data were processed

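FLMs were run on the 10x Chromium 3′ v3 platform. The authors aligned and counted reads with Cell Ranger 3.1.0 on mm10 (file header and submitters' notes) and deposited UMI counts per gene and barcode in 7 libraries. Gene positions are from RefSeq for GRCm38. Here counts were summed over kept cells and divided by the library total (CPM). Ratios have Clopper-Pearson intervals, levels Poisson intervals and differences of log2 ratios normal intervals on the log scale, all at 95%. A gene was called when its ratio passed 1.5-fold, over 9807 genes with a mean of at least 2 CPM. Cells were thinned to 20000 UMIs with a fixed seed. No doublet caller was run; leaving out the 5% of cells with the most UMIs stands in for it. Ratios and intervals were checked on simulated Poisson counts, the model that the intervals assume. The check does not cover UMIs that cluster in cells, as those of Irf7 and Irf1 did, so intervals of such genes may be too narrow. Python 3.11.15, numpy 2.4.6, scipy 1.17.1, pandas 2.3.3, R 4.3.3 and edgeR 4.0.16 (TMM factors only) were used. The 8 members and all lists were chosen with earlier results of these data known. Genes were named by membership of the 8, of the lists or, for likeness, as the 3 nearest profiles. From the list of other IRF and STAT genes, 2 genes are not reported here.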

Additional observations from a re-analysis of the deposited data

Results flagged for a closer look

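The effect of DHA pointed in opposite directions at different LPS times for 4 of the 8 genes, with counting intervals on both sides of 1. The share of all genes that met this rule was not computed, so the count of 4 has no background beside it. The ratio of Irf3 also changed side, from 0.916 at 0 h to 1.16 at 4 h, but its interval at 0 h includes 1. None of these differences was tested over replicates, as each group is 1 library. The log2 DHA/Veh ratio at 4 h minus that at 1 h was -3.02 for Irf7, -1.82 for Stat2, -1.67 for Irf1 and -1.49 for Irf9. At 4 h minus 0 h it was -2.58 for Irf7. For Stat2 it was 0.54 at 1 h minus 0 h, where the ratio at 0 h was slightly below 1 (0.893, interval 0.801 to 0.995) and that at 1 h above it. That 0 h ratio ranked at percentile 26.6 of all log2 ratios, so it was not unusual among all genes.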

How the results depend on the processing

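Of 72 ratios, 30 were past 1.5-fold, and 23 of these stayed past it under all 10 alternatives to the choice, weight, depth or scaling of cells. Of 720 ratios recomputed, 570 moved by less than counting error, 150 by more, and no call changed its direction. With a limit of 2-fold, the counts of genes called were 3 for Veh.LPS.0 against Con, 1 for DHA against Veh at 1 h, 2 at 4 h, and 1 each for DHA.LPS.1 and DHA.LPS.4 against DHA.LPS.0. Over cells without Mki67 or Top2a UMIs, of which 54 to 350 were left, 2 genes were called for DHA against Veh at 0 h (Irf7 and Irf1) and 4 for DHA.LPS.1 against DHA.LPS.0. Over all barcodes the latter count was 4. The share of all genes past the limit was not computed for the 2-fold limit or for these other choices of cells. The counts under them therefore have no background beside them. With TMM or median-of-ratios factors DHA.LPS.4 against DHA.LPS.0 gave 5, of which 4 were higher in place of 0. The causes were not tested. Counts of genes whose DHA effect differed between 4 h and 0 h beyond counting error were 6 to 7 throughout. The share of all genes with such a difference was not computed, so these counts also have no background beside them. The genes counted were not the same throughout, as small differences such as those of Irf3 and Irf8 depend on the scaling. No paired analysis was possible because each group has 1 library.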
